A study of Mus musculus with 16 samples.

Results

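The 10 genes described here carry the cyclic AMP (cAMP) pathway inside the cell: 4 phosphodiesterases (Pde4a, Pde4b, Pde4d and Pde3b), the adenylyl cyclase Adcy7, 3 protein kinase A subunits (Prkar1a, Prkaca and Prkacb) and the transcription factors Creb1 and Crem. They were taken by symbol from a table of 46320 genes, and all 10 were among the 15610 genes with enough counts to be tested. The members were chosen by their library-size scaled values in all 4 groups, with the comparisons described here already known. Their values and calls are therefore given as a description, with no p-values, and the calls support nothing on their own.

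The cells were macrophages grown for 7 days from the marrow of C57BL6/J mice in L929-conditioned medium, which supplies M-CSF, a cytokine on which macrophages depend. All groups then spent 4 hours in medium with 0.5% serum and 4 hours under treatment, and RNA was sequenced in bulk from poly(A)-selected, strand-preserving libraries. The groups were thrombin-activated platelets, resting platelets, thrombin alone and PBS vehicle, with 4 libraries each; platelets came from the blood of C57BL6/J mice. The protocol gives 0.01 U/mL thrombin for both groups that received it, but the thrombin libraries are themselves labelled 0.1 U/mL, so a comparison of those groups assumes that the dose was the same. Library totals were 28.0 to 30.6 M counts (M, mega) with activated platelets, 24.9 to 26.4 with resting platelets, 23.1 to 26.7 with thrombin and 22.6 to 27.7 with vehicle. The replicate 1 libraries stood apart in every group: Ddx3y, a gene of the Y chromosome, was at 85.1 to 93.2 CPM there and at most 0.27 CPM in replicates 2 to 4, while Xist, which silences one X chromosome in female cells, was at most 1.06 CPM there and 1060 to 1290 CPM in replicates 2 to 4. This is the pattern of male cells in replicate 1 and of female cells in the others, so the marrow of replicate 1 came from other mice. Whether replicates 2 to 4 came from separate animals or cultures is not stated in the labels, so p-values measure the spread between these libraries, part of which may be technical.

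Adenylyl cyclases make cAMP when a hormone receptor engages the stimulatory G protein Gs, and phosphodiesterases break it down. cAMP binds the regulatory subunits of protein kinase A and frees the catalytic subunits, which phosphorylate CREB and other proteins. In macrophages this route carries the response to prostaglandin E2 and adenosine. Phosphodiesterase 4 is the family blocked by anti-inflammatory drugs such as roflumilast, and transcripts of Pde4b, Pde4d and the Crem repressor form ICER are known to be induced by cAMP itself.

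In vehicle-treated macrophages the most abundant members per kilobase of exon were Prkar1a, at 80.6 ± 2.32 CPM per kb (SD, n = 4), and Adcy7, at 71.8 ± 6.84 CPM per kb, whose libraries overlapped. CPM are counts per M (mega) counts of the library, after TMM scaling of library size. Prkacb (38.2 ± 2.19 CPM per kb) and Prkaca (34.3 ± 1.05 CPM per kb) came next without overlap, then Pde3b (16.3 ± 4.80 CPM per kb), Creb1 (9.07 ± 0.691 CPM per kb) and Pde4a (3.73 ± 0.0932 CPM per kb). At the low end Crem (1.08 ± 0.174 CPM per kb) and Pde4b (0.814 ± 0.160 CPM per kb) overlapped, and Pde4d stood at 0.0800 ± 0.00965 CPM per kb. The length used is the combined exon length of every annotated isoform, 53295 bases for Pde4d and 20779 bases for Pde4b, so levels per kb of these genes with many isoforms are understated.

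With activated platelets the transcripts of 3 phosphodiesterases, of Crem and of the kinase subunit Prkar1a were higher than in vehicle, and those of Pde4a and Prkacb were lower by less than 1.2-fold. Pde4d was 3.48-fold higher, Pde3b 2.71-fold, Pde4b 2.44-fold, Crem 2.26-fold and Prkar1a 1.33-fold. These 7 of 10 members, 5 higher and 2 lower, passed edgeR's quasi-likelihood test at an adjusted p under 0.05, a threshold that 25.8% of all tested genes passed in this comparison (12.2% higher, 13.6% lower). Genes that passed it are termed called. The median log2 fold change was 0.31 over the 10 members and -0.004 over all tested genes. Creb1, Adcy7 and Prkaca did not pass. With the replicate number as a block Adcy7 and Prkaca did, beside 6635 of the 15610 tested genes (3122 higher, 3513 lower). Without the replicate 1 libraries 7 members were still called, while calls over all genes went from 4031 to 2522.

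**Figure D1:**
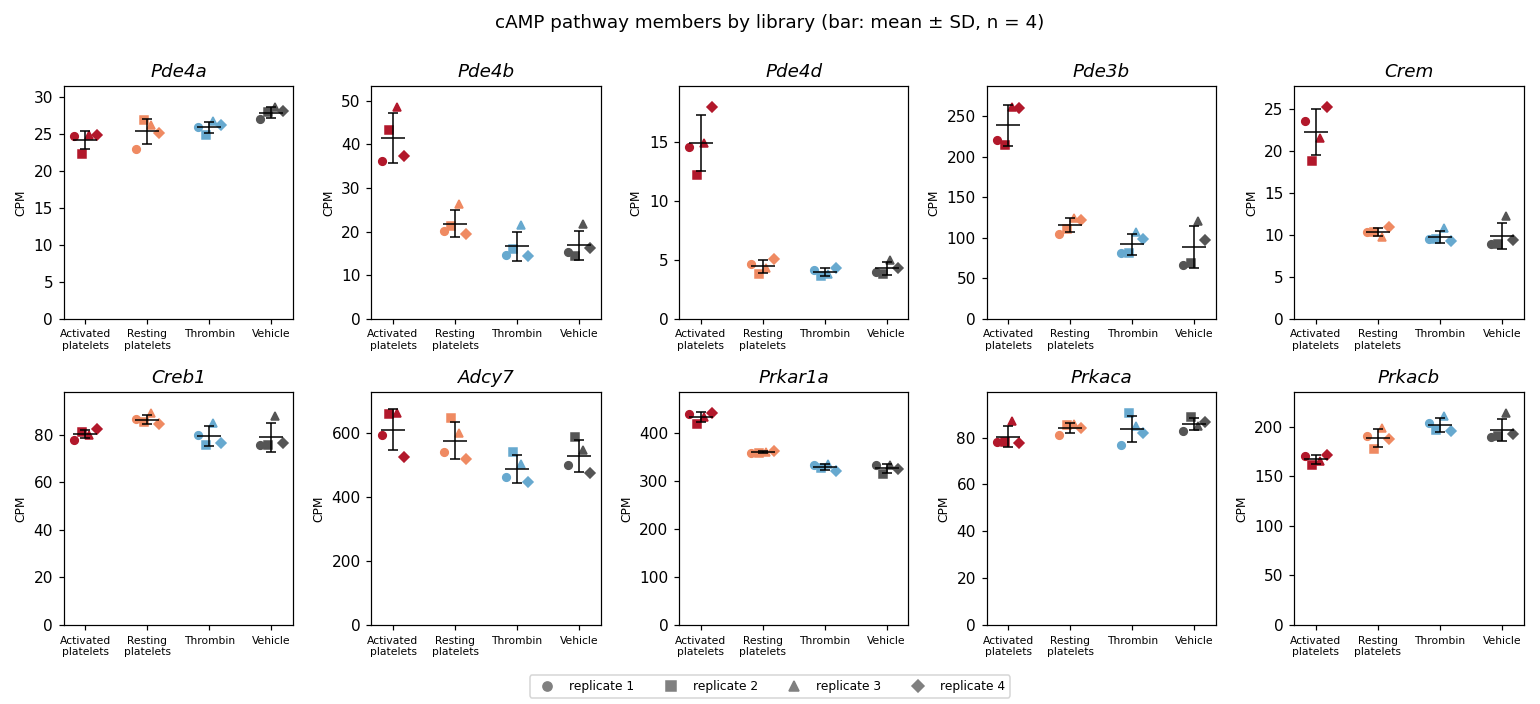
CPM of each of the 10 members in every library (y axes in CPM, starting at 0), by treatment group; symbols mark replicate numbers and black bars the mean ± SD of 4 libraries. Pde4b, Pde4d, Pde3b, Crem and Prkar1a are higher in all 4 activated platelet libraries than in any other library, whereas Creb1, Adcy7 and Prkaca overlap with vehicle.

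Markers of platelets differed between the same libraries. The 22 platelet and megakaryocyte markers together made up 0.0521% to 0.0619% of counts with activated platelets, 0.0330% to 0.0382% with resting platelets, 0.0324% to 0.0349% with thrombin and 0.0300% to 0.0364% with vehicle. Most of the share without platelets came from Pf4 and Vwf, which were at means of 200 and 78.7 CPM with thrombin alone. The sum therefore moved less than many single markers. Of 21 tested markers, 18 were higher and 1 lower with activated platelets than with vehicle, and 10 were higher and 0 lower with resting platelets. Ppbp, for example, was at 35.7 CPM with activated platelets, 4.68 CPM with resting platelets and 0.242 CPM with vehicle. The defining marker Gp9 had no counts in any vehicle or thrombin library. Of the other cell types looked for, the 8 erythroid markers took a mean of 0.00107% of counts with activated platelets, against 1.26e-05% with vehicle. The part of platelet and red cell RNA in the counts of the members and of the pathway genes was not tested. The 12 macrophage markers took 1.81% to 2.25% of counts with activated platelets, 1.81% to 2.22% with resting platelets, 1.80% to 2.20% with thrombin and 1.82% to 2.20% with vehicle. Single macrophage markers did differ with activated platelets against vehicle, 4 higher and 2 lower of 12. Cd14, a receptor for lipopolysaccharide, was 3.28-fold and the chemokine receptor gene Cx3cr1 1.90-fold higher, and the mannose receptor gene Mrc1 was 1.48-fold and the receptor kinase gene Mertk 1.34-fold lower (edgeR adjusted p of 2.9e-11, 0.00127, 0.0334 and 0.0338 in that order). In bulk RNA, fewer cells of a type and less RNA per cell cannot be told apart.

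Pde4d encodes a cAMP-specific phosphodiesterase of the PDE4 family (chromosome 13, 108790711 to 110092503, plus strand, GRCm39). It was at 14.5, 12.2, 14.9 and 17.9 CPM with activated platelets (replicates 1 to 4), against 3.97, 3.82, 4.98 and 4.28 CPM in vehicle. Resting platelet libraries held 4.66, 3.79, 4.29 and 5.03 CPM and thrombin libraries 4.17, 3.58, 3.78 and 4.34 CPM. The 12 libraries without activated platelets overlapped with each other, and every activated platelet library lay above them all. The log2 fold change against vehicle was 1.80 ± 0.12 (SE) with activated platelets, 0.06 ± 0.13 with resting platelets and -0.10 ± 0.13 with thrombin. Within replicate numbers the ratio of activated platelets to vehicle was 3.66, 3.19, 3.00 and 4.19.

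Pde4b encodes the PDE4 enzyme known for its role in the inflammatory response of monocytes and macrophages (chromosome 4, 101944529 to 102464472, plus strand). It stood at 36.3, 43.4, 48.6 and 37.4 CPM with activated platelets, against 15.3, 14.3, 21.7 and 16.3 CPM in vehicle. With resting platelets it was at 20.2, 21.3, 26.3 and 19.4 CPM, and with thrombin at 14.6, 16, 21.4 and 14.3 CPM. In each of the groups replicate 3 held the highest value. Resting platelets overlapped with vehicle, but in each of the 4 replicate numbers the resting library was the higher, by 1.32, 1.49, 1.21 and 1.19 times. That log2 fold change was 0.36 ± 0.15 and was not called; it was called with the replicate number as a block (0.36 ± 0.06) and without replicate number 3 (0.41).

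Pde3b encodes a phosphodiesterase that hydrolyses cAMP and is inhibited by cGMP, best known in fat and liver cells as an effector of insulin (chromosome 7, 114014388 to 114137173, plus strand). Activated platelet libraries held 220.0, 214, 261 and 260.5 CPM, against 66.0, 68.3, 121 and 97.2 CPM in vehicle. Resting platelet libraries held 105, 111, 124 and 122 CPM, and thrombin libraries 81.2, 81.3, 107 and 98.6 CPM. The spread in vehicle was wide, and vehicle replicate 3 overlapped with the resting platelet libraries. Resting platelets gave a log2 fold change of 0.39 ± 0.16, not called, with ratios of 1.59, 1.62, 1.03 and 1.25 within replicate numbers, and of 0.41 ± 0.10, called, with the replicate block. Without vehicle replicate 3 it was 0.58 and was called.

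Pde4a, the third PDE4 member (chromosome 9, 21076998 to 21124544, plus strand), ran the other way. Its level was 24.7, 22.3, 24.8 and 24.8 CPM with activated platelets, against 26.9, 27.9, 28.6 and 28.0 CPM in vehicle, a log2 fold change of -0.21 ± 0.05. Resting platelets (23.0, 26.9, 26.2 and 25.1 CPM) and thrombin (25.9, 24.8, 26.7 and 26.1 CPM) also lay below every vehicle library but were not called. The log2 fold change with resting platelets was -0.14 ± 0.05, and it passed with the replicate block. Summed per kb, the 3 PDE4 genes gave 5.51 ± 0.294 CPM per kb with activated platelets, 4.52 ± 0.321 with resting platelets, 4.34 ± 0.228 with thrombin and 4.63 ± 0.244 with vehicle. Pde4a made up 58.8% ± 3.15 of that sum with activated platelets and 80.8% ± 2.59 with vehicle, while Pde4b made up 36.1% ± 3.76 with activated platelets and 17.5% ± 2.48 with vehicle. In both shares the activated platelet and vehicle libraries did not overlap. The sum and shares rest on combined exon lengths of 7460 bases for Pde4a, 20779 for Pde4b and 53295 for Pde4d, so Pde4b and Pde4d are understated in them. In CPM, without division by length, Pde4b had a mean of 41.4 with activated platelets, above Pde4a at 24.1. In vehicle Pde4b was at 16.9 CPM, below Pde4a at 27.9 CPM.

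Over the 13 tested genes for cAMP-hydrolysing phosphodiesterases, the summed level was 111 ± 4.69 CPM per kb with activated platelets, 82.6 ± 6.25 with resting platelets, 77.8 ± 4.36 with thrombin and 77.5 ± 5.4 with vehicle. Pde3b made up 39.7% ± 3.12 of it with activated platelets, 26.0% ± 2.48 with resting platelets, 22% ± 3.35 with thrombin and 21.0% ± 5.62 with vehicle. In vehicle the most abundant of these genes was Pde1b, a calmodulin-dependent phosphodiesterase, at 38.4 CPM per kb. With activated platelets Pde3b stood at 44.2 CPM per kb and Pde1b at 35.0 CPM per kb. As in the PDE4 sum, genes with a long combined exon length, such as Pde4d, are understated in these values.

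**Figure D2:**
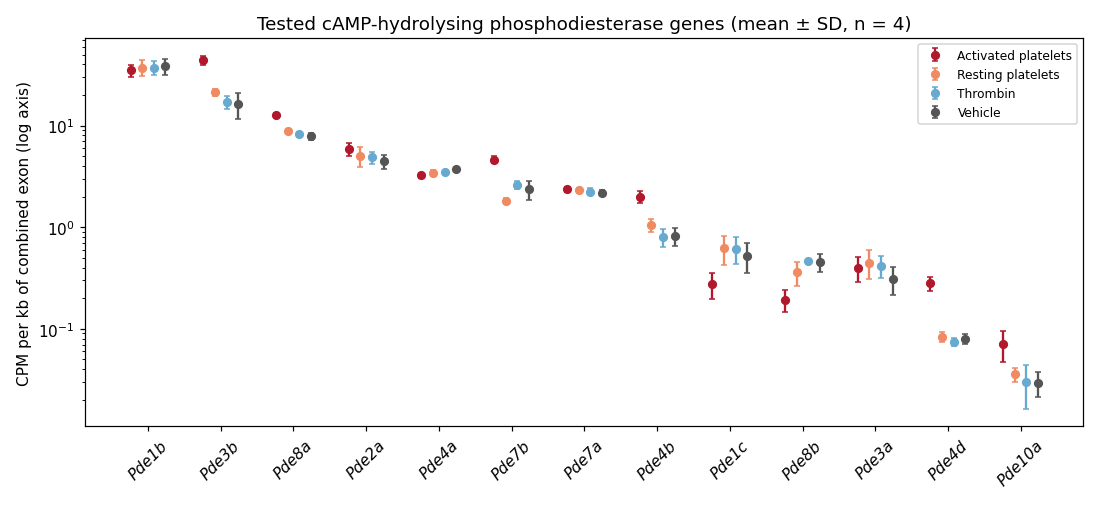
Mean CPM per kb of combined exon (log axis) ± SD of 4 libraries for the 13 tested cAMP-hydrolysing phosphodiesterase genes, ordered by their level in vehicle, with the 4 groups side by side. Pde3b, Pde8a, Pde7b, Pde4b and Pde4d are among the genes with their highest level with activated platelets, and Pde1c and Pde8b among those with their lowest there.

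Crem encodes a relative of CREB, one of whose promoters makes the repressor ICER. The table counts the whole gene, so activating and repressing forms cannot be separated. It was at 23.5, 18.8, 21.6 and 25.2 CPM with activated platelets, against 8.91, 8.95, 12.2 and 9.35 CPM in vehicle, a log2 fold change of 1.17 ± 0.10. Resting platelet libraries held 10.4, 10.3, 9.71 and 10.9 CPM and thrombin libraries 9.47, 9.51, 10.8 and 9.21 CPM, both overlapping with vehicle. Creb1, the CREB transcription factor itself (chromosome 1, 64571963 to 64643707, plus strand), was at 77.8, 81.1, 80.1 and 82.3 CPM with activated platelets and at 75.5, 75.9, 87.9 and 76.4 CPM in vehicle. Its log2 fold change of 0.03 ± 0.05 was not called, and thrombin libraries, at 79.8, 75.8, 85.2 and 76.7 CPM, overlapped with both. Resting platelets held Creb1 at 86.6, 85.3, 89.1 and 84.5 CPM, above every activated platelet library; the log2 fold change against vehicle was 0.13 ± 0.05 and was not called, but passed with the replicate block and without vehicle replicate 3 (0.19).

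Prkar1a encodes the type I alpha regulatory subunit, which holds the kinase inactive until cAMP binds (chromosome 11, 109539849 to 109560489, plus strand). It varied little between replicates, at 441, 419.6, 434 and 442 CPM with activated platelets, against 334, 314, 334 and 326 CPM in vehicle. Resting platelets lay between, at 359.6, 359, 362 and 363 CPM, and thrombin libraries, at 333, 329, 335 and 321 CPM, overlapped with vehicle. The log2 fold change against vehicle was 0.41 ± 0.03 with activated platelets and 0.14 ± 0.03 with resting platelets, both called. The resting platelet call ended without any single library of the 8 except vehicle replicate 3, at log2 fold changes between 0.12 and 0.15. It also ended without each replicate number in all groups, without the low-count filter and when only the compared groups were fitted. It was kept with the replicate block.

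The catalytic subunit genes moved less. Prkacb (chromosome 3, 146435334 to 146518701, minus strand) was at 170.1, 161, 165 and 172 CPM with activated platelets, against 189.8, 191, 214 and 193 CPM in vehicle, a log2 fold change of -0.24 ± 0.05. All 4 activated platelet libraries lay below every vehicle library, while resting platelets (190.3, 178, 199 and 187 CPM) and thrombin (204, 197, 211 and 196 CPM) overlapped with vehicle. Prkaca (chromosome 8, 84699607 to 84723073, plus strand) was at 78.2, 78.2, 87 and 77.9 CPM with activated platelets, against 82.8, 89.0, 84.9 and 86.7 CPM in vehicle. Resting platelet libraries held 81.3, 85.2, 85.7 and 84.3 CPM and thrombin libraries 77.0, 90.4, 85.2 and 82.1 CPM, and all groups overlapped. Its log2 fold change of -0.10 ± 0.05 was called with the replicate block and, at -0.14, without activated platelet replicate 3, which lay above the other libraries of its group. Per kb, the ratio of Prkar1a to the 2 catalytic subunit transcripts was 1.66 ± 0.0432 with activated platelets, 1.27 ± 0.0289 with resting platelets, 1.12 ± 0.0343 with thrombin and 1.11 ± 0.0471 with vehicle. No activated or resting platelet library overlapped with another group in this ratio, whereas thrombin and vehicle overlapped. Counting all 4 regulatory subunit genes, it was 2.02 ± 0.0717 with activated platelets and 1.42 ± 0.0562 with vehicle. The ratio of Prkacb to Prkaca was 1.02 ± 0.0672 with activated platelets and 1.12 ± 0.0781 with vehicle, with overlapping libraries. These are ratios of transcripts, and the protein was not measured.

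**Figure D3:**
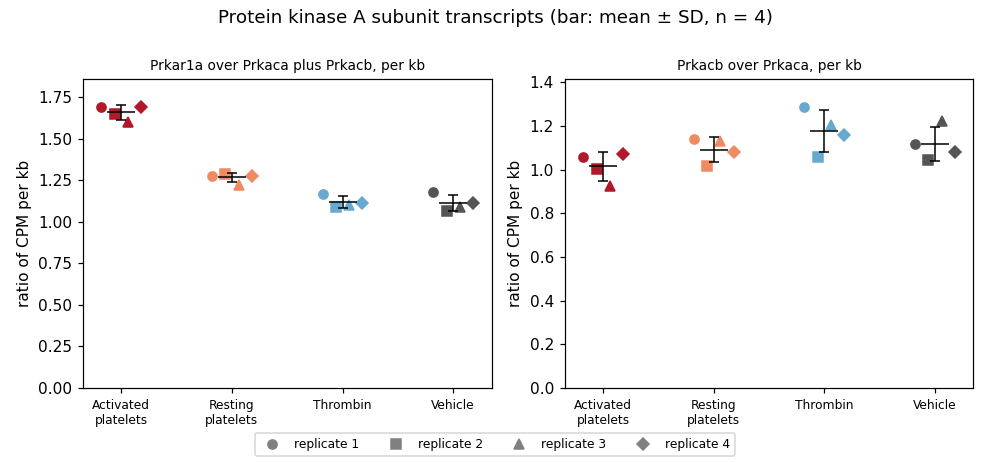
Ratios of CPM per kb in each library for Prkar1a over the sum of Prkaca and Prkacb (left) and for Prkacb over Prkaca (right), by group, with symbols for replicate numbers and black bars for the mean ± SD of 4 libraries. The left ratio is between 1.6 and 1.69 with activated platelets, between 1.22 and 1.29 with resting platelets, and between 1.07 and 1.18 with vehicle.

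Adcy7, the adenylyl cyclase that is prominent in blood cells (chromosome 8, 88998818 to 89056593, plus strand), was at 595, 661, 662 and 526 CPM with activated platelets, against 500.4, 588, 547 and 474 CPM in vehicle. Resting platelet libraries held 541, 648, 599 and 519.5 CPM and thrombin libraries 461, 541, 502 and 447 CPM. The libraries of all 4 groups overlapped, and in each group replicate 2 or 3 held the highest value and replicate 4 the lowest. Within replicate numbers the ratio to vehicle was 1.19, 1.12, 1.21 and 1.11 with activated platelets, 1.08, 1.1, 1.1 and 1.1 with resting platelets, and 0.922, 0.921, 0.918 and 0.943 with thrombin. Fitted on all libraries without the block, none of these 3 comparisons called Adcy7; without activated platelet replicate 4 the first did (0.28). With the replicate number as a block all 3 did, at log2 fold changes of 0.21 ± 0.03, 0.13 ± 0.03 and -0.11 ± 0.03 in the same order. The block called 6635, 3360 and 1285 of the 15610 tested genes in these comparisons.

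**Figure D4:**
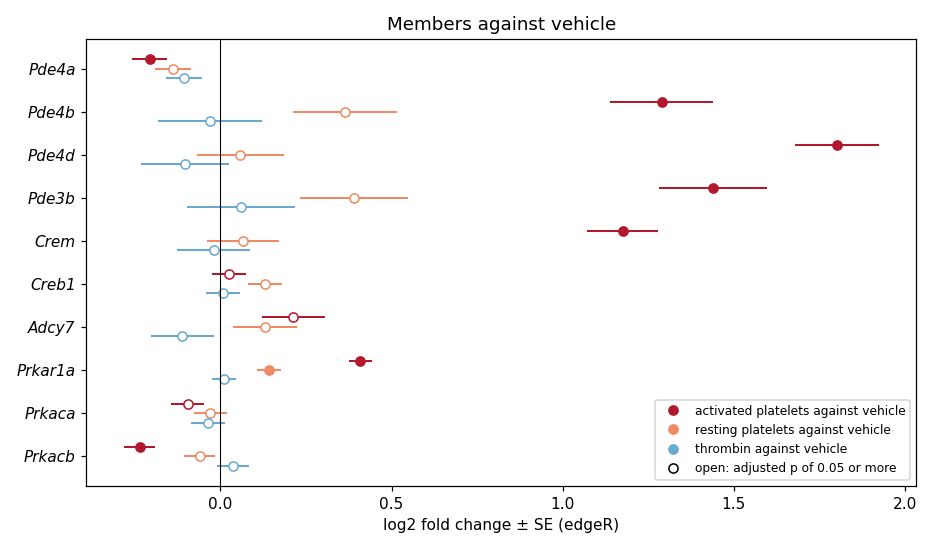
Log2 fold change ± SE of the 10 members against vehicle for activated platelets, resting platelets and thrombin, from edgeR without a replicate block; filled points passed an adjusted p under 0.05. Pde4d, Pde3b, Pde4b and Crem lie above 1 with activated platelets, and no thrombin point is filled.

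With resting platelets only Prkar1a was called among the 10 members, where 3.39% of all tested genes were called (2.07% higher, 1.32% lower). With the replicate block 6 members were called, 5 higher and 1 lower, beside 21.5% of all genes in the same fit (10.9% higher, 10.6% lower), namely Pde4b, Pde3b, Creb1, Adcy7 and Prkar1a above and Pde4a below vehicle. With thrombin 0 of 10 members were called by edgeR, which called 0.288% of all genes (0.0897% higher, 0.199% lower). At an unadjusted p under 0.05 there were 0 members, beside 11.4% of all tested genes. DESeq2 called 0 members and 160 genes in all. With 10 members, counts of 0 do not set them apart from all genes. With the block Adcy7 was lower and no other member was called, beside 8.23% of all genes (3.91% higher, 4.32% lower).

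Set against resting platelets, activated platelets had 6 of 10 members called, 5 higher and 1 lower, beside 15.8% of all tested genes (7.34% higher, 8.49% lower). Pde4d was 3.35-fold, Crem 2.16-fold, Pde3b 2.07-fold, Pde4b 1.90-fold and Prkar1a 1.20-fold higher, and Prkacb was 1.13-fold lower. The call of Prkacb ended without resting platelet replicate 3, where the log2 fold change was -0.15, and without replicate number 1, 3 or 4 in all groups. Creb1 (log2 fold change -0.10 ± 0.05) and Adcy7 (0.08 ± 0.09) were called with the block only, beside 5391 of the 15610 tested genes (2489 higher, 2902 lower). Set against thrombin alone, 7 of 10 were called, 6 higher and 1 lower, beside 25.4% of all genes (11.9% higher, 13.5% lower). The additional member was Adcy7, at a log2 fold change of 0.32 ± 0.09. Its call ended without activated platelet replicate 2 or 3 or thrombin replicate 1, and without replicate number 1 or 3 in all groups. Its log2 fold change was between 0.28 and 0.40 over all fits with libraries left out. These comparisons share libraries with those against vehicle and are not independent of them.

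The interaction asks whether thrombin changed a transcript differently with platelets than without them, as activated minus resting platelets less thrombin minus vehicle. It was positive and called for 5 of 10 members, beside 9.93% of all tested genes (4.56% higher, 5.37% lower). The log2 values were 1.85 ± 0.18 for Pde4d, 1.13 ± 0.15 for Crem, 0.99 ± 0.22 for Pde3b, 0.96 ± 0.21 for Pde4b and 0.26 ± 0.05 for Prkar1a. No single left-out library ended these calls. Without replicate number 1 in all groups, Pde4b, Pde3b and Prkar1a were no longer called, leaving Pde4d and Crem, beside 264 of all genes. Without number 4 Pde4b and Pde3b were lost, and without number 2 Pde4b. With the replicate block Adcy7, at 0.19 ± 0.13 without it, and Prkacb, at -0.21 ± 0.06, were called too. The block called 4535 of the 15610 tested genes in the interaction (2049 higher, 2486 lower). Prkacb also passed without resting platelet replicate 2, thrombin replicate 4 or vehicle replicate 3, at -0.24, -0.22 and -0.25 in that order, and with DESeq2 and with RLE size factors.

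Promoter windows from RefSeq on GRCm38.p6, from 250 bases before to 50 after each annotated start, were matched by symbol for 8 of the 10 members (23 windows); Pde3b and Crem were named only. The cAMP response element searched was TGACGTCA on both strands, together with its core TGACG, which lies within it. The full element was in 2 of the 23 member windows, which overlap and both belong to Prkar1a, and in 1.79% of all 32851 windows. The core was in 8 of the 23 member windows and in 20.8% of all windows. Counted by gene, it was in 6 of the 8 members and in 23% of all 27025 genes. These shares by gene are not alike. The 8 members had 23 windows and the 27025 genes 32851, and a gene with more windows has more chances of a match. The 6 members included Pde4a and Prkacb, which were lower with activated platelets, and Adcy7 and Prkaca, which were not called there. The windows printed show Pde4d, the member with the largest rise, its family member Pde4b and Prkar1a, the member with the full element, with the letters of the core on either strand and of the full element in capitals. On GRCm38.p6 they lie at chr13:108653927-108654226, chr4:102421305-102421604 and chr11:109650699-109650998, all on the plus strand.
Pde4d: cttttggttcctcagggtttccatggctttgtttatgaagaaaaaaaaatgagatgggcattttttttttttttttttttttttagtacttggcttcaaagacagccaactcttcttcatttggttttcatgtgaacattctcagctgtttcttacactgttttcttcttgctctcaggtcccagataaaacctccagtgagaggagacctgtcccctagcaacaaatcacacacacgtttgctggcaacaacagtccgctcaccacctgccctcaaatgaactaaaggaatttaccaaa
Pde4b: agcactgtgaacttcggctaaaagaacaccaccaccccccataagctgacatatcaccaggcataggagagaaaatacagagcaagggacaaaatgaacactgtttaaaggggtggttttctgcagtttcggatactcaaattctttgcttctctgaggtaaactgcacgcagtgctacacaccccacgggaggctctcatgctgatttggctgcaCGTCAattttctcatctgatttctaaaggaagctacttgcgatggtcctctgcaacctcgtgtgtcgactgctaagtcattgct
Prkar1a: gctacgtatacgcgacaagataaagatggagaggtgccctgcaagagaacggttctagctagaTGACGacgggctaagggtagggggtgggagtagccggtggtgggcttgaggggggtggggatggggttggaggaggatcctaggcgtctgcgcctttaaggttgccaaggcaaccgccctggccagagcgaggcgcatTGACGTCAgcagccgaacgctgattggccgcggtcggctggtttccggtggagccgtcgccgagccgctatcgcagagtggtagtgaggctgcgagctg
The Prkar1a element begins 49 bases before the start. The Pde4b core is read on the opposite strand, and its leftmost letter as printed lies 34 bases before the start. The printed Pde4b window was picked because it holds the core, and the other Pde4b windows held none. The Pde4d window held neither. A match of letters is not a bound site, and these windows cover only the starts in the table.

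Genes of the same pathway outside the 10 members also differed with activated platelets. Of 110 listed genes 89 could be tested, and 30 were higher and 16 lower than in vehicle, which is 51.7% called beside 25.8% of all tested genes; the median log2 fold change was 0.08. The lists of these genes were drawn up with earlier results of these data known. Their counts of calls and p-values are therefore a description and support nothing on their own. The genes cover 12 roles. Without the replicate 1 libraries 38 of them were called, beside 2522 of all genes. Some pathway genes are also markers of other cells: P2ry12, listed here as a Gi receptor, is also a platelet marker. It was at 13.4 CPM with activated platelets (log2 fold change 0.78, edgeR adjusted p = 0.000654). Without platelets, it was at 8.53 CPM with thrombin alone. With resting platelets it was at 8.07 CPM (log2 fold change 0.05, not called). The part of platelet RNA in its counts was not tested.

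Receptors that couple to Gs moved both ways, 3 higher and 4 lower of 9 tested (77.8% called beside 25.8% of all tested genes). Ptger2, a prostaglandin E2 receptor, rose to 35.0 ± 4.02 CPM with activated platelets, against 20.5 ± 0.485 CPM in vehicle (log2 fold change 0.77 ± 0.09, edgeR adjusted p = 1.57e-05). Ptger4, the other Gs-coupled receptor for prostaglandin E2, fell to 15.9 ± 2.68 CPM with activated platelets, against 30.6 ± 1.62 CPM in vehicle (-0.95 ± 0.10, adjusted p = 2.44e-06 by edgeR). The adenosine receptor gene Adora2b rose to 6.42 ± 0.589 CPM, against 2.69 ± 0.150 CPM in vehicle (1.25 ± 0.15, edgeR adjusted p = 1.91e-05). Among 13 receptors that couple to Gi, which inhibits the cyclases, 6 were higher and 1 lower (53.8% called beside the same 25.8%). The rises were led by the sphingosine phosphate receptor gene S1pr1 (1.84-fold, edgeR adjusted p = 1.97e-07), the serotonin receptor gene Htr1b (4.12-fold, 4.13e-05) and Gpr84, a receptor for medium-chain fatty acids (2.26-fold, 6.88e-05). The 6 tested G alpha subunit genes, Gnas of Gs among them, had 0 calls by edgeR. Of these 6, 1 (16.7%) was at an unadjusted p under 0.05, beside 36.4% of all tested genes.

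Of the 6 other adenylyl cyclases tested, 2 fell and 0 rose (33.3% called beside 25.8% of all tested genes). Adcy9 was at 23.7 ± 3.05 CPM with activated platelets, against 44.6 ± 4.71 CPM in vehicle (log2 fold change -0.91 ± 0.10, edgeR adjusted p = 6.12e-06), and Adcy3 was 1.22-fold lower (adjusted p = 0.00578; 0.0549 without replicate number 1). Among the 9 other phosphodiesterases 3 rose and 2 fell (55.6% called beside the same 25.8%). Pde8a, a cAMP-specific enzyme that is insensitive to most PDE inhibitors, rose to 76.8 ± 3.25 CPM, against 47.2 ± 3.93 CPM in vehicle (0.70 ± 0.05, edgeR adjusted p = 1.29e-07). Pde7b rose 1.95-fold (1.83e-05) and Pde8b, a low transcript at 1.73 ± 0.420 CPM with activated platelets and 4.03 ± 0.806 CPM in vehicle, was 2.32-fold lower (0.000347).

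Downstream of cAMP, the kinase inhibitor gene Pkib fell to 16.8 ± 3.33 CPM with activated platelets, against 42.8 ± 7.32 CPM in vehicle (log2 fold change -1.35 ± 0.16, edgeR adjusted p = 1.23e-05). The regulatory subunit gene Prkar1b rose 2.34-fold (edgeR adjusted p = 2.4e-05), and these were the 2 calls among 6 genes of that kind (33.3% beside 25.8% of all tested genes). Of the 4 genes for EPAC, the exchange factors that cAMP also binds, and their partner Rap1, 50% were called, beside the same 25.8%. Rapgef3 was 1.66-fold lower (edgeR adjusted p = 0.00986), a call lost without replicate number 1 or 3. Rap1a was 1.08-fold lower (edgeR adjusted p = 0.0201), and its call ended without activated platelet replicate 1 or 4 or vehicle replicate 3 (edgeR adjusted p of 0.0527 to 0.0667). The Rap1a call also ended without replicate number 1, 3 or 4, without the low-count filter and when only the compared groups were fitted. Of 11 genes for AKAPs, which anchor the kinase, 2 rose and 2 fell (36.4% called beside 25.8% of all tested genes). Akap10 was 1.5-fold lower (edgeR adjusted p = 2.29e-05), Akap3 1.80-fold higher (0.000374) and Akap7 1.18-fold lower (0.0235). The call of Akap7 ended without activated platelet replicate 1 or 2 or vehicle replicate 2 or 3 (edgeR adjusted p of 0.05 to 0.0752). It also ended without replicate number 1, 2 or 3 in all groups.

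Among 8 CREB relatives and coactivators 25% were called, close to the 25.8% of all tested genes. Creb5 rose 1.37-fold (edgeR adjusted p = 0.00028) and Creb3 fell 1.22-fold (0.000332). Of the 2 salt-inducible kinase genes Sik3 rose 1.29-fold (edgeR adjusted p = 0.000592). The list of CREB target genes had the most calls, 13 higher and 1 lower of 14 tested, beside 25.8% of all tested genes (12.2% higher, 13.6% lower). Its median log2 fold change was 1.20, and the list was drawn up with earlier results of these data known. Vegfa, a growth factor for blood vessels, was at 285 ± 48.4 CPM with activated platelets, against 39.4 ± 6.15 CPM in vehicle (2.85 ± 0.14, edgeR adjusted p = 1.05e-09). Fos, an AP-1 subunit, was 4.19-fold higher (2.04e-09) and the orphan nuclear receptor gene Nr4a2 2.56-fold higher (4.79e-07). These genes answer to other signals as well as to CREB, and the exception was Il10, at 0.151 ± 0.106 CPM with activated platelets and 0.503 ± 0.0736 CPM in vehicle (log2 fold change -1.68 ± 0.36, edgeR adjusted p = 0.00279); its name was added after its values were seen.

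**Figure D5:**
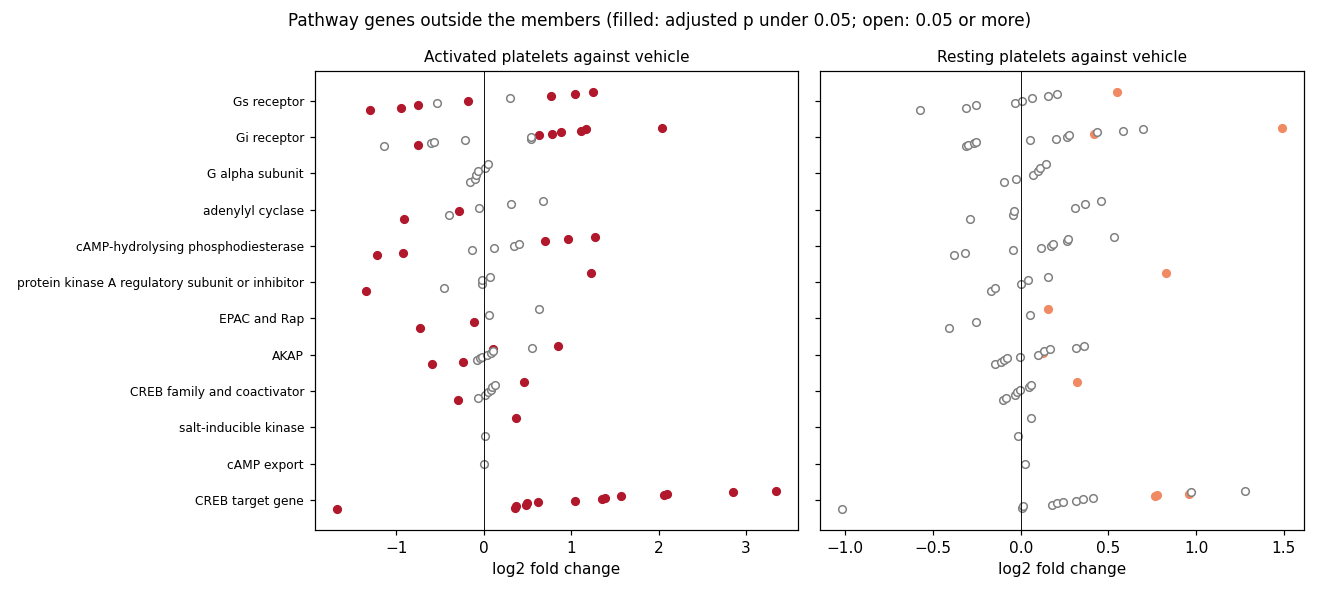
Log2 fold change of 89 tested pathway genes outside the members, by role, for activated platelets against vehicle (left) and resting platelets against vehicle (right); filled points passed edgeR's test at an adjusted p under 0.05 and open points did not. CREB target genes hold 13 filled points above 0 and 1 below it on the left, and 10 points over all roles are filled on the right.

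With resting platelets 10 of the 89 pathway genes were higher than in vehicle and 0 lower, 11.2% beside 3.39% of all tested genes. Without the replicate 1 libraries 2 pathway genes were called, while calls over all genes went from 529 to 58. With the replicate block 27 pathway genes were higher and 9 lower, beside 21.5% of all genes. Ptger2 rose to 30.1 ± 4.21 CPM, against 20.5 ± 0.485 CPM in vehicle (1.46-fold, edgeR adjusted p = 0.00485). S1pr1 rose 1.34-fold (0.00463), Htr1b 2.80-fold (0.00807), Prkar1b 1.78-fold (0.0102), Fos 1.70-fold (0.000949) and Vegfa 1.95-fold (0.000949). Leaving out replicate number 1 ended the calls of Ptger2, S1pr1, Htr1b and Prkar1b. The call of Htr1b also ended without number 3 (0.0593), and that of Prkar1b without number 2 (0.0646) or 3 (0.0815), or when only the 2 groups compared were fitted (0.0514). Smaller rises were those of Creb5 (1.25-fold, edgeR adjusted p = 0.0311), Akap11 (1.09-fold, 0.0370) and Rap1b (1.11-fold, 0.0442), which were lost when libraries were left out. For Creb5 these were resting platelet replicates 1, 2 and 4 and vehicle replicates 1 and 2 (adjusted p of 0.0576 to 0.0951). Akap11 was lost without any single library except resting platelet replicate 3 (0.0510 to 0.109) and Rap1b without any except vehicle replicate 3 (0.0547 to 0.128).

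Against resting platelets, activated platelets had 21 of the 89 pathway genes higher and 13 lower (38.2% beside 15.8% of all tested genes), among them 10 CREB targets higher and 0 lower of 14. The interaction was called for 13 with a positive and 11 with a negative sign (27% beside 9.93%). Without replicate number 1 the pathway calls were 18 against resting platelets and 7 for the interaction. Calls over all genes were then 972 and 264 in that order.

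With thrombin alone the 1 pathway gene called of 89, with 12 (13.5%) at an unadjusted p under 0.05 beside 11.4% of all tested genes, was Akap11, at 64.5 ± 0.932 CPM with thrombin against 57.3 ± 1.41 CPM in vehicle (log2 fold change 0.17 ± 0.03, edgeR adjusted p = 0.0405). Its call ended without any 1 of the 8 libraries (adjusted p of 0.0612 to 0.152). With the replicate block 7 pathway genes were higher and 4 lower, beside 8.23% of all genes.

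The genes whose profile over the 16 libraries was most like that of Pde4d, the member with the largest rise, were Itga9 (Pearson r = 0.987), Fam110a (0.976), Cd14 (0.969), Cd300lf (0.969) and Got1 (0.968), among 10366 genes with a mean of at least 5 CPM. Itga9, an integrin subunit, was at 65.4 CPM with activated platelets, 31.9 CPM with resting platelets, 28.3 CPM with thrombin and 28.2 CPM with vehicle. For Prkacb, the member with the largest fall, they were Cd93 (0.974), Rnf150 (0.967), Slc16a7 (0.966), Dipk2a (0.961) and Dse (0.961). Among the members the closest pair was Pde4d and Crem (0.981). These correlations describe 16 libraries that share treatments and replicate numbers. After group means were removed r was 0.912 for Pde4d with Itga9, 0.674 for Pde4d with Crem and -0.042 for Pde4d with Pde4b.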

How the data were processed

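The authors deposited raw estimated counts per gene, with gene symbols, exon length in bases and GRCm39 positions. The submitters' processing notes name cutadapt (2.5), STAR (2.7.2b), featureCounts (1.6.4, Subread) and the builds GRCm39 and mm10. Strand and multi-mapping settings were not given in sources used here, so overlapping and near-identical genes are uncertain. Of the values above 0, 25.5% were not whole; all were rounded, where whole counts had been foreseen.

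Genes passing filterByExpr were scaled by TMM and fitted as 4 groups over 16 libraries with edgeR 4.0.16 (robust quasi-likelihood test, R 4.3.3), two-sided, with Benjamini-Hochberg adjustment over 15610 genes and a threshold of 0.05. Standard errors come from the F statistic. Alternatives were RLE size factors, no low-count filter, DESeq2 1.42.0, the replicate number as a block, a fit of the compared groups alone, and leaving out each library and each replicate number. The fit was tested on simulated data with known changes and independent libraries. It was not tested on simulated libraries that share a replicate number.

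Members, lists and naming rules were chosen with earlier results of these data known. All members were named. Of each pathway role, the rule names up to 3 genes with the smallest p with activated platelets and up to 2 with resting platelets, at 1 CPM or more, plus every pathway gene called with thrombin; for likeness, 5 genes each for the member with the largest rise and the largest fall.

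The main results come from the fit without a replicate block, and the text states where the block changes the call of a member. With the block, pathway calls with activated platelets were 61 against vehicle and 60 against thrombin. The main fit had 46 and 45 in that order. The data, not a label, show that replicate numbers pair the libraries. Deviations from the group mean correlated at 0.29 to 0.617 in the 24 pairs of libraries with 1 number, against -0.436 to 0.253 between different numbers, and 16 of 16 libraries were closest to their own number. Replicates within a group differed beyond counting error in all 24 pairs (chi-square over its degrees of freedom 8.43 to 36.2). Mean shares of counts for the remaining marker lists, with activated platelets against vehicle, were 0.00874% and 0.00652% (neutrophil), 0.00127% and 0.00296% (lymphocyte), 0.000222% and 0.00023% (dendritic cell), 0.000122% and 0.000118% (mast cell and basophil) and 0.316% and 0.368% (stromal).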

Additional observations from a re-analysis of the deposited data

Results flagged for a closer look

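In groups of 4 libraries, 11 of 152 gene and group combinations had 1 library far from the other 3 by Dixon's test; chance flags about 1 in 20. Among members these were Pde4a in activated platelet replicate 2 (22.3 CPM, others 24.7 to 24.8), Prkaca in activated platelet replicate 3 (87 CPM, others 77.9 to 78.2), and vehicle replicate 3 for Crem (12.2 CPM, others 8.91 to 9.35), Creb1 (87.9 CPM, others 75.5 to 76.4) and Prkacb (214 CPM, others 190 to 193). Outside the members they were Adora2b (2.47 CPM) and Fos (49.8 CPM) in vehicle replicate 1, Vegfa (30.2 CPM) in vehicle replicate 2, Pde8a (53.1 CPM) in vehicle replicate 3, Gpr84 (29.0 CPM) in activated platelet replicate 2 and Pkib (56.1 CPM) in thrombin replicate 2.

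The interaction term, the thrombin difference with platelets less that without them, was called for 5 members. It used the values by which the members were chosen, so it is a description of them, at log2 values of 0.955 for Pde4b, 1.85 for Pde4d, 0.988 for Pde3b, 1.13 for Crem and 0.256 for Prkar1a. Without replicate number 1 only Pde4d and Crem of these were called, beside 264 of all genes. Outside the members it was positive for Adora2b (0.775), S1pr1 (0.414), Pde8a (0.470), Pde7b (1.21), Sik3 (0.321), Vegfa (1.71), Fos (1.25) and Nr4a2 (1.29). It was negative for Ptger4 (-0.786), Adcy9 (-0.561), Pde8b (-0.924), Pkib (-1.23), Rap1a (-0.195), Rap1b (-0.199), Akap10 (-0.595) and Akap11 (-0.198). Of these 16 pathway genes, 10 lost the call without replicate number 1, leaving Ptger4, Pde7b, Pde8a, Nr4a2, Fos and Vegfa, which were also kept without number 2, 3 or 4. Adora2b, Pde8b, Rap1a, Rap1b and Sik3 lost it whichever of the 4 numbers was left out. Leaving out single libraries ended the call of Pde8b in 13 of 16 fits, of Adora2b and Rap1b in 10 each and of Sik3 in 8.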

How the results depend on the processing

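Of 78 calls of members and named pathway genes, 65 were kept whichever single library was left out and 50 in every fit. Of 87 other settings of 18 counts of calls, leave-outs aside, 24 moved a count by over 1.5 times: 12 of them with the replicate block, 5 in fits of the compared groups, 4 with DESeq2 and 3 without the low-count filter. With the replicate block, all-gene calls were 6635 for activated platelets, 3360 for resting platelets and 1285 for thrombin against vehicle, 5391 and 6499 for activated platelets against resting platelets and against thrombin, and 4535 for the interaction. Pathway calls with the block were 36 for resting platelets, 11 for thrombin, 52 for activated against resting platelets and 42 for the interaction, and member calls 6 for resting platelets and 1 for thrombin. For resting platelets DESeq2 gave 953 genes and 16 pathway genes, no low-count filter 335 genes and 0 members, and a fit of only the compared groups 188 genes, 6 pathway genes and 0 members. For thrombin DESeq2 gave 160 genes and 3 pathway genes, no filter 0 pathway genes, and only the compared groups 11 genes and 0 pathway genes. The cause of these differences was not tested.

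Leaving out a library or a replicate number gave 2522 to 3727 genes for activated platelets, 58 to 550 for resting platelets, 4 to 27 for thrombin, 972 to 2256 against resting platelets, 2422 to 3798 against thrombin and 264 to 1672 for the interaction. Pathway calls were 2 to 11 for resting platelets, 0 for thrombin, 18 to 34 against resting platelets and 7 to 26 for the interaction, and member calls 0 to 3 for resting platelets and 2 to 6 for the interaction. The lowest counts of all genes came without replicate number 1.

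A sign changed for 13 member values, none of them called. Their log2 ranges for thrombin were -0.17 to 0.11 (Pde4b), -0.17 to 0.00091 (Pde4d), -0.059 to 0.25 (Pde3b), -0.071 to 0.10 (Crem), -0.027 to 0.064 (Creb1), -0.0096 to 0.021 (Prkar1a) and -0.076 to 0.0011 (Prkaca). They were -0.011 to 0.16 for Pde4d with resting platelets, -0.11 to 0.0042 for Pde4a against resting platelets, -0.0057 to 0.054 (Creb1) and -0.10 to 0.00052 (Prkaca) against thrombin, and -0.0048 to 0.093 (Pde4a) and -0.071 to 0.019 (Prkaca) in the interaction.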
